A study of Mus musculus with 16 samples.

Results

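The 39 genes described here encode developmental transcription factors outside the Hox clusters: 8 Pax, 8 T-box, 3 Six-family (Six2, Six3 and Six6), 4 Irx, 4 Nkx, 3 Sox, 2 Olig, 2 Lhx, 3 Gata and 2 Fox genes. They were taken by name from a list and not by any measured value, and all 39 had a transcription start site (TSS) among the 21161 genes that the authors' annotation gave one. Chromatin accessibility was measured by ATAC-seq, in which the Tn5 transposase cuts and tags open DNA, in spermatogenic cell fractions from testes of C57BL/6 mice that were Scml2-KO (knockout of the germline Polycomb gene Scml2) or wild type. The stages were Thy1+ spermatogonia (Thy1), among which are the stem cells, and c-Kit+ spermatogonia (cKit), which have begun to differentiate, both taken at postnatal day 7 (P7), then pachytene spermatocytes (PS, cells in meiosis) and round spermatids (RS, haploid cells) from adult mice. Each stage had 2 Scml2-KO and 2 wild-type libraries, 16 in all, made from about 500000 spermatogonia, 250000 PS or 1000000 RS. The labels name no allele for the knockout, and a peak list cannot check it: the Scml2 promoter was itself open in 3 of 8 Scml2-KO and 6 of 8 wild-type libraries.

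As background, these factors set the identity of organs and tissues in the embryo: Pax and Lhx proteins in eye, kidney, muscle and brain, T-box proteins in limb and heart, Nkx proteins in thyroid, heart and pancreas, and Gata and Fox proteins in blood and endoderm. Their promoters are rich in CpG and are classical targets of Polycomb repression in cells that do not use them, and in mouse germ cells many of them carry active and repressive histone marks together. A promoter peak says that the DNA was accessible and not that the gene was transcribed.

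The RefSeq promoters (build GRCm38.p6) of 7 genes that the results turn on are shown as the 250 bases before the RefSeq start, on the strand of the gene, with each CG in capitals. The first 3 belong to genes with a promoter peak in every library, the next (Pax9) to a gene open mostly in P7 libraries, then Sox1, open in all PS libraries, and the last 2 to genes never open. RefSeq entries matched 27 of the 39 genes. The 7 stretches, in the order shown, lie at chr13:72628570-72628819 (plus strand), chr5:101664712-101664961 (minus), chr6:88198414-88198663 (plus), chr12:56695221-56695470 (plus), chr8:12395269-12395518 (plus), chr4:139832969-139833218 (minus) and chr17:26841566-26841815 (minus).
Irx2: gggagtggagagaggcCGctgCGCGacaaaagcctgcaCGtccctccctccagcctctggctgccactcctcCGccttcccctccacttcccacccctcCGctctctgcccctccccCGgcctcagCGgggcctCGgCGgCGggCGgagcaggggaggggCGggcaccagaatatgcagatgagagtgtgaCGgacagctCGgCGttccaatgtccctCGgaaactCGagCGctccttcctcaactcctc
Nkx6-1: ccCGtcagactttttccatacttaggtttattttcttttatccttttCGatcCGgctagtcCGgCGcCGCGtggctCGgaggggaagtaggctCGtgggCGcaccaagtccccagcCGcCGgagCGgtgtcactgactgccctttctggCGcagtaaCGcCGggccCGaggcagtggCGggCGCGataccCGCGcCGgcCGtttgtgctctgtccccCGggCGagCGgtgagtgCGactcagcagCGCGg
Gata2: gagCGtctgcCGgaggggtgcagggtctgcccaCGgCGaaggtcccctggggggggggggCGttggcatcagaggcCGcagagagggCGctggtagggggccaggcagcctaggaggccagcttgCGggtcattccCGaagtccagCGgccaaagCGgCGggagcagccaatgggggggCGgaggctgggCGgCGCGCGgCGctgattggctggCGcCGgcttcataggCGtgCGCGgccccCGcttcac
Pax9: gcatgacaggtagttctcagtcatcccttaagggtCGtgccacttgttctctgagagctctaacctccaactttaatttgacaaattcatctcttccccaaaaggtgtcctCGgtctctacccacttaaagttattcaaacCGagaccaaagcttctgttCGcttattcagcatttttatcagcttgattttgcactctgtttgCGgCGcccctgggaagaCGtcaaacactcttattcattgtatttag
Sox1: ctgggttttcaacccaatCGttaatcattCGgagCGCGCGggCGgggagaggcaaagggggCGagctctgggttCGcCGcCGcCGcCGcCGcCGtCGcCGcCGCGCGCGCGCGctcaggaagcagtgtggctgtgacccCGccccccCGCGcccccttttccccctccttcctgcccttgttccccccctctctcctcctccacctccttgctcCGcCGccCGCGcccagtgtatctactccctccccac
Pax7: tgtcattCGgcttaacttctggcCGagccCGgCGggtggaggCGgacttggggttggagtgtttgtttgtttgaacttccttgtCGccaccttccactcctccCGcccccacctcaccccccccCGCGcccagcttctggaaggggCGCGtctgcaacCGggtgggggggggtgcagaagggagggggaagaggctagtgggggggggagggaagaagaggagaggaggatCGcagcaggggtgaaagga
Nkx2-5: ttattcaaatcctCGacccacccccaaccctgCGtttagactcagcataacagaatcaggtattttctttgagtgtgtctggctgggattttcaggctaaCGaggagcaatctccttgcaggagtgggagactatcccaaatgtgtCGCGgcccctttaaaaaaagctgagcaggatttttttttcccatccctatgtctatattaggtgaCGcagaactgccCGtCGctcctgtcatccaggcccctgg
The 250 bases held 19 CG pairs in Irx2, 30 in Nkx6-1, 24 in Gata2, 7 in Pax9, 29 in Sox1, 13 in Pax7 and 8 in Nkx2-5. In these stretches Pax7 and Nkx2-5, never open, had more CG pairs than Pax9, which was open in 9 libraries. The Pax9 summits lay just beyond its printed stretch, so the bases counted are not the open site.

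A promoter peak was a peak with at least 1 bp inside a window that reached 1 kb up and down from a TSS. The members had such a peak less widely in adult than in P7 cells: 10 to 22 of the 39 (median 15) in the 8 adult libraries, against 13 to 33 (median 26) in the 8 P7 libraries. The members' median shares were 38.5% in adult and 66.7% in P7 libraries. Over all genes the share with a promoter peak was 55.1% to 69.4% (median 58%) in adult libraries and 50.9% to 74.4% (median 69.6%) in P7 libraries. By stage, the median was 26.5 members in Thy1, 23.5 in cKit, 14 in PS and 16 in RS, and the ranges of cKit (13 to 30) and PS (13 to 18) overlapped. The lists themselves differed in length, from 17813 peaks in cKit Scml2-KO replicate 2 to 164060 in RS Scml2-KO replicate 1, and in each group replicate 1 had the longer list. In a bulk library, fewer cells with an accessible site and a weaker signal per cell cannot be told apart, and stage and age cannot be told apart between P7 and adult cells.

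**Figure D1:**
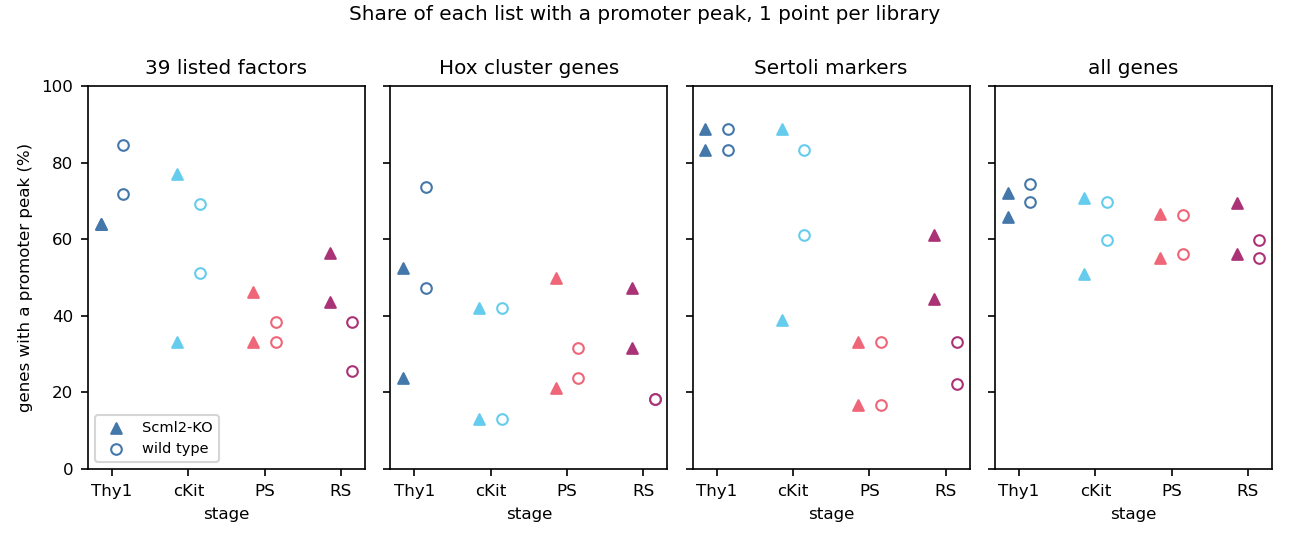
Percentage of genes with a promoter peak (y axis) in each library, by stage (x axis), for the 39 factors, the Hox cluster genes, Sertoli cell markers and all genes; filled triangles are Scml2-KO and open circles wild-type libraries. The factors lie at 25.6% to 56.4% in the adult libraries and 33.3% to 84.6% in the P7 libraries, and the Sertoli markers are also lower in the adult libraries.

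The 39 genes ran from always open to never open. A promoter peak was present in all 16 libraries for 3 (Irx2, Nkx6-1 and Gata2), which is 7.69% of the 39 beside 39.2% of all genes, and in none for 5 (Pax5, Pax7, Tbx4, Tbx5 and Nkx2-5), 12.8% beside 14.8%. The others were open in 1 to 15 libraries. Fewer adult than P7 libraries had a peak for 26 genes (66.7%, beside 27.1% of all genes). More had one for 3 (Tbx1, Six3 and Sox1, 7.69% beside 16.1%) and the same number for 10. The median gene of the list was open in 2 adult and 6 P7 libraries, and the median of all genes in 6 adult and 7 P7 libraries.

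**Figure D2:**
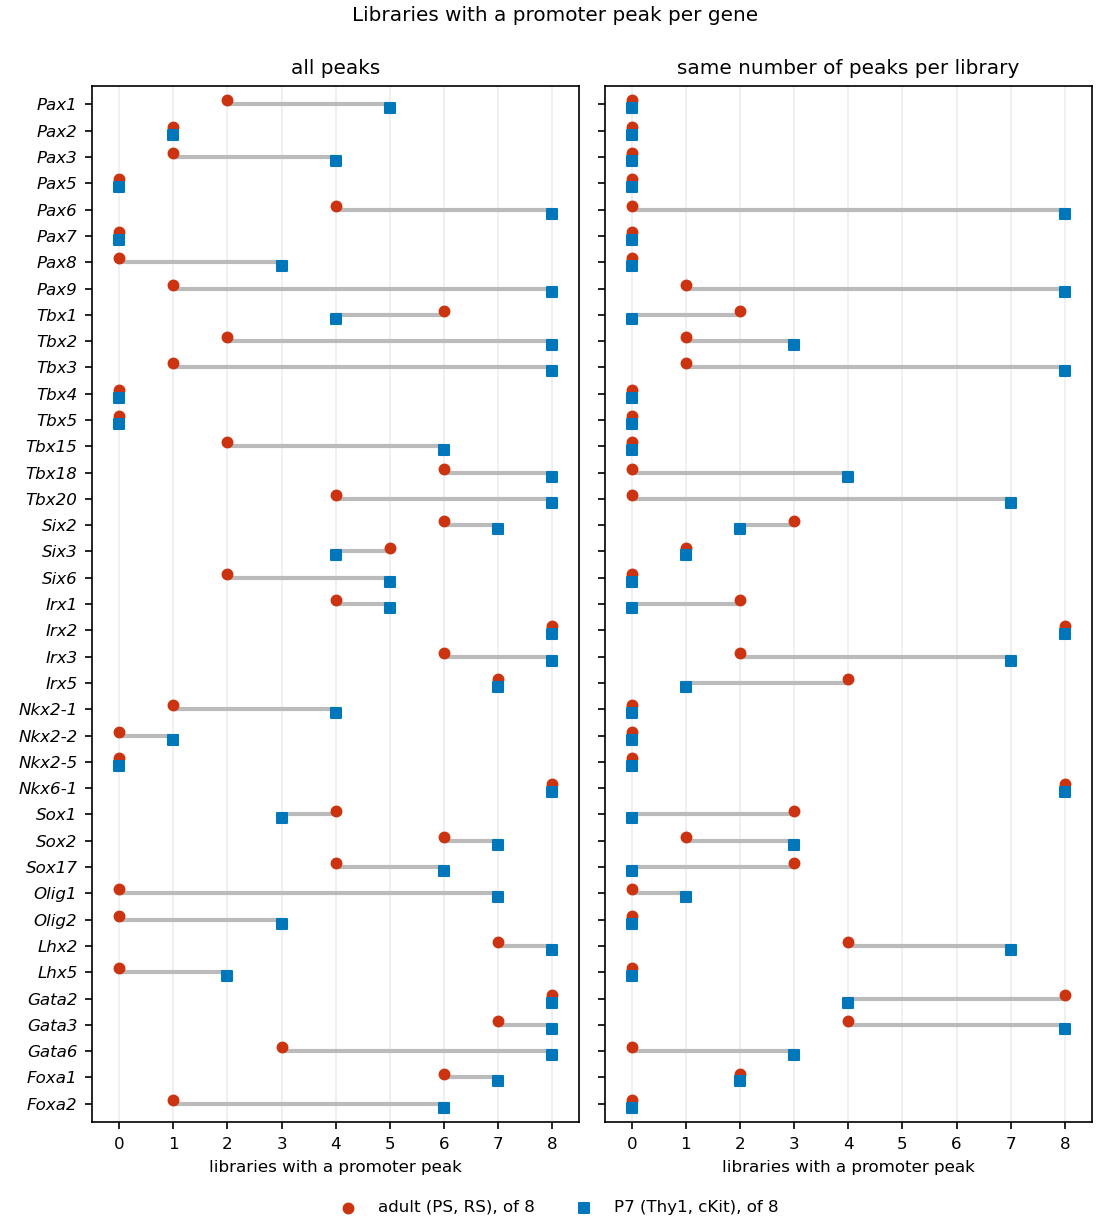
Number of libraries with a promoter peak (x axis, of 8) for each of the 39 genes (y axis), with adult libraries as red circles and P7 libraries as blue squares; left, all peaks, and right, the 17813 peaks with the highest fold enrichment of each library. Pax9 and Tbx3 stand at 1 adult and 8 P7 libraries in both panels, and Irx2 and Nkx6-1 at 8 and 8. Pax6 stands at 4 adult and 8 P7 libraries on the left and at 0 and 8 on the right.

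Irx2, a patterning gene of the Iroquois homeobox family, had the strongest promoter signal of the list. The strength of a peak is given as the authors' fold enrichment at its strongest summit within 1 kb of a TSS, a ratio that is not scaled between libraries and is used here only as a description. For Irx2 it was 25.5 and 17.9 in PS Scml2-KO, 17 and 18.6 in PS wild type, 20.4 and 5.20 in RS Scml2-KO and 6.64 and 6.39 in RS wild type, against 22.9 and 11.1 in Thy1 Scml2-KO, 23.5 and 23.4 in Thy1 wild type, 17 and 6.82 in cKit Scml2-KO and 15.4 and 12.3 in wild-type cKit. The values overlapped widely, with a median of 17.5 in adult and 16.2 in P7 libraries. Its summits lay 317 bp upstream to 101 bp downstream of the TSS (chromosome 13, position 72628978, build mm10), in and around the sequence above. The TSS of Gm20554 lies 414 bp away on the other strand, so the peak cannot be given to Irx2 alone.

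Nkx6-1, a homeobox gene of pancreatic beta cells and motor neuron progenitors, was open in every library, mostly at a place away from its start. Fold enrichment ran from 5.43 to 25.5 (median 10.1) in adult libraries and from 6.36 to 23.1 (median 16.4) in P7 libraries, and the 2 sets overlapped. The median strongest summit was 715 bp upstream of the TSS, beyond the 250 bases printed. Just downstream of the 1-kb window, 1243 to 1322 bp past the start, every P7 library had another summit, at 3.97 to 15.68. Among adult libraries only PS Scml2-KO replicate 2 had one there, at 4.35. Gata2, a zinc finger gene of blood stem cells, had values of 5.43 to 17.8 (median 8.27) in adult and 4.63 to 13.9 (median 7.85) in P7 libraries. Its summits lay within 76 bp upstream and 2 bp downstream of the TSS, mostly inside the CG-rich stretch printed above. The highest Gata2 values were 17.7 in PS Scml2-KO replicate 1 and 17.8 in RS Scml2-KO replicate 1, both from long lists.

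Pax9, Tbx3, Olig1 and Tbx2 had a promoter peak in fewer adult than P7 libraries, and no member passed the test the other way. Each gene's libraries with and without a peak were compared by Fisher's exact test (two-sided), adjusted by Benjamini-Hochberg over the 3895 genes open in 5 to 11 libraries, with a threshold of 0.05. Of the 16 members tested, 4 passed in the direction of fewer adult libraries, or 25%, beside 24.7% of all genes tested, so the share of members called was at the background. In the other direction 0 members passed, beside 8.5% of all genes, and the smallest unadjusted Fisher exact p of a member with more adult libraries was 0.608, for Tbx1. Among all genes called, 74.4% were lower in adult cells, and 61.6% were when each list was reduced to its 17813 strongest peaks.

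Pax9, a paired-box gene of tooth, thymus and skeleton, was open at its promoter in 1 of 8 adult and 8 of 8 P7 libraries (Fisher exact, adjusted p = 0.00876). The adult peak, in RS wild type replicate 1, had a fold enrichment of 6.64. In P7 cells the values were 19.9 and 7.15 in Thy1 Scml2-KO, 24.7 and 16.9 in Thy1 wild type, 18.1 and 5.24 in cKit Scml2-KO and 19.6 and 7.2 in wild-type cKit. Every P7 library had the peak, and the lower value of each P7 group was that of replicate 2, the shorter list. The summits lay between 102 bp upstream and 77 bp downstream of the authors' TSS (chromosome 12, position 56695639), which is 168 bp past the RefSeq start and so just beyond the printed stretch.

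Tbx3, a T-box gene of limb and mammary gland, was open in 1 of 8 adult and 8 of 8 P7 libraries (Fisher exact, adjusted p = 0.00876). The single adult peak, in RS Scml2-KO replicate 2, had a fold enrichment of 4.76. The P7 values were 19.4 and 9.54 in Thy1 Scml2-KO, 24.7 and 15.8 in Thy1 wild type, 11.7 and 6.29 in cKit Scml2-KO and 12.5 and 13.9 in wild-type cKit. All P7 values were above the adult one, and Tbx3 peaks were wide, up to 1823 bp.

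Tbx2, the closest relative of Tbx3 in the list and a repressor in heart chamber formation, was open in 2 of 8 adult and 8 of 8 P7 libraries (Fisher exact, adjusted p = 0.0247). Its values were 5.68 and 4.76 in RS Scml2-KO and were missing in PS and in RS wild type, against 9.17 and 4.77 in Thy1 Scml2-KO, 9.04 and 8.18 in Thy1 wild type, 4.79 and 3.67 in cKit Scml2-KO and 9.49 and 6.17 in wild-type cKit. The adult values fell within the P7 range. The Tbx2 call was lost with peaks of −log10 q of 5 or more (Fisher exact, adjusted p = 0.187) and with a fold enrichment of 5 or more (0.184), and when genes open in 1 to 15 libraries were tested (0.0617), and the TSS of 2610027K06Rik is 227 bp away, so the peak is shared.

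Olig1, a helix-loop-helix gene of oligodendrocytes, was open in 0 of 8 adult and 7 of 8 P7 libraries (Fisher exact, adjusted p = 0.00876). The P7 values were low, 4.08 and 5.56 in Thy1 Scml2-KO, 5.43 and 4.91 in Thy1 wild type, 4.79 in cKit Scml2-KO replicate 1 and 4.75 and 5.65 in cKit wild type. Only the shortest list, cKit Scml2-KO replicate 2, lacked the peak among the P7 libraries. Its neighbour Olig2, of motor neurons and oligodendrocytes, was open in 0 adult and 3 P7 libraries, too few to be tested.

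Gata6 and Foxa2, both of endoderm, came just short of the threshold. Gata6 was open in 3 adult and 8 P7 libraries (Fisher exact, adjusted p = 0.0546), with fold enrichment of 5.68, 3.90 and 3.88 in RS libraries only and of 5.14 to 13.9 (median 8.07) in P7 libraries. Foxa2 was open in 1 adult and 6 P7 libraries (Fisher exact, adjusted p = 0.072), with 3.41 in RS Scml2-KO replicate 1 and 4.63 to 8.44 (median 5.21) in P7 libraries. Gata6 passed when cKit Scml2-KO replicate 2, cKit wild type replicate 2, either RS Scml2-KO replicate or RS wild type replicate 1 was left out (Fisher exact, lowest adjusted p = 0.0183). Foxa2 passed without cKit Scml2-KO replicate 2, cKit wild type replicate 1 or RS Scml2-KO replicate 1 (Fisher exact, lowest adjusted p = 0.0184). Pax9, Tbx3, Tbx2 and Olig1 passed without each of the 16 libraries in turn, with adjusted p of 0.0016 to 0.0224 over these fits (Fisher exact).

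**Figure D3:**
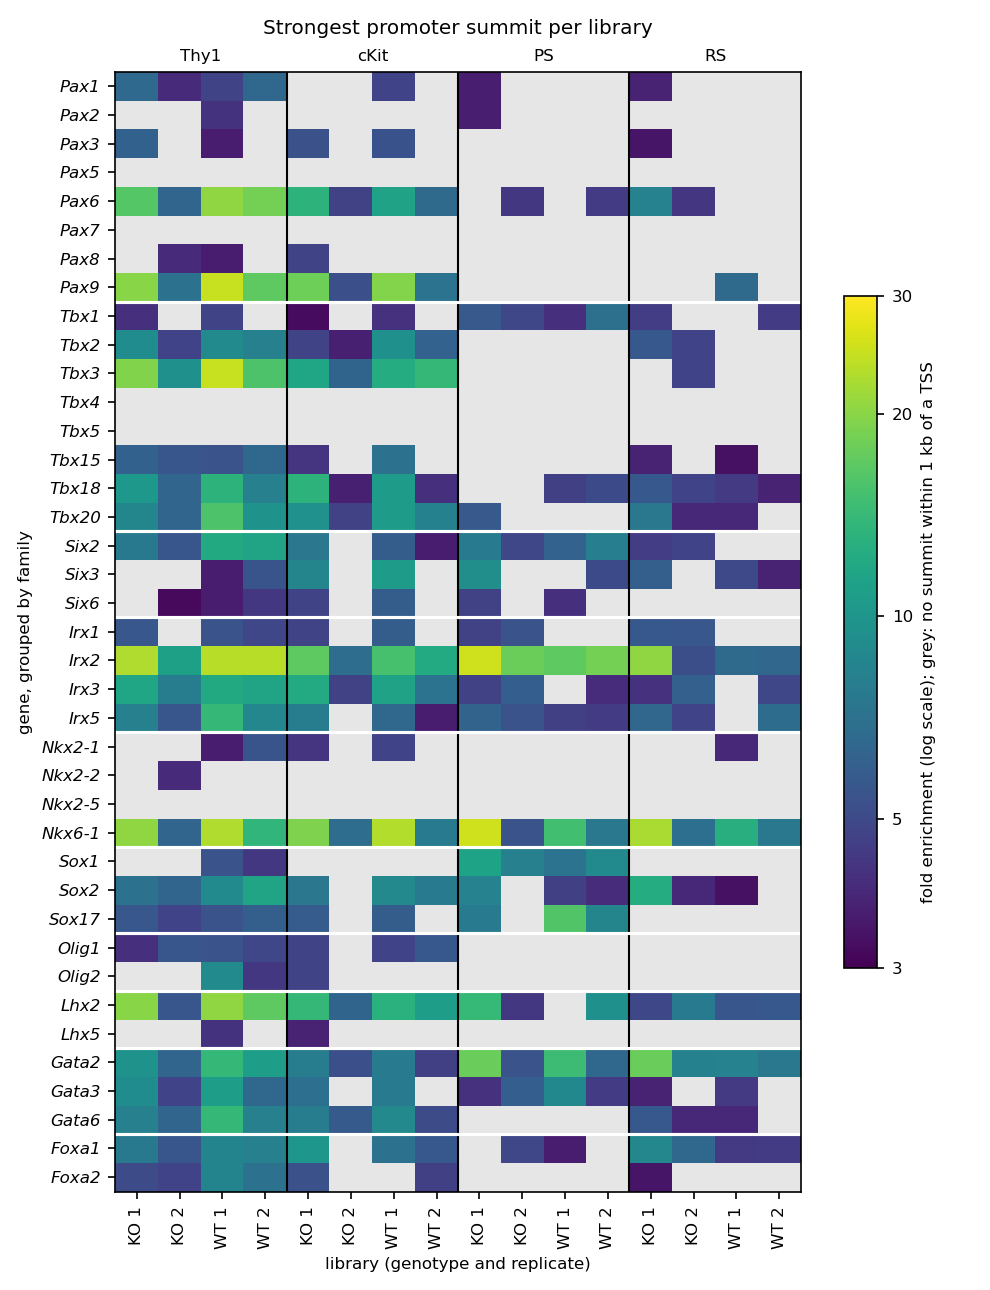
Fold enrichment of the strongest summit within 1 kb of a TSS (colour, log scale) for each of the 39 genes (rows, by family) in each of the 16 libraries (columns, by stage, genotype and replicate); grey means no summit there. Irx2, Nkx6-1 and Gata2 are coloured in every column, Pax9 and Tbx3 almost only in Thy1 and cKit, and Sox1 most strongly in PS.

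Because the lists differed so much in length, presence was also counted among the 17813 peaks of highest fold enrichment in every library. This is a rank within each list and not a common level: it kept all peaks of cKit Scml2-KO replicate 2, down to a fold enrichment of 3.67, and 10.9% of those of RS Scml2-KO replicate 1, down to 11.4. It is given as a description, and no change in any gene is read from it. On this count 2 members (Irx2 and Nkx6-1) were open in all 16 libraries, beside 28.4% of all genes, and 16 in none, beside 29.8%. Pax9 and Tbx3 were again in 1 adult and 8 P7 libraries. Pax6, a gene of eye development, was in 0 adult and 8 P7 libraries and Tbx20, of heart development, in 0 and 7, whereas with all peaks each was open in 4 adult and 8 P7 libraries, outside the range tested.

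The fold enrichment of Pax6 was 4.35 in PS Scml2-KO replicate 2, 4.52 in PS wild type replicate 2 and 8.33 and 4.33 in RS Scml2-KO, against 16.3 and 6.36 in Thy1 Scml2-KO, 20.5 and 18.5 in Thy1 wild type, 13.3 and 4.72 in cKit of the knockout and 11.3 and 6.68 in cKit of the wild type. The adult values had a median of 4.43 and the P7 values one of 12.3. Pax6 has starts at positions 105668896, 105675513 and 105676129 of chromosome 2, and the values were not all at the same one. The highest adult value, 8.33, was within the P7 range but lay 64 bp upstream of the first start. All P7 values and the other adult values lay at the later starts. Within 1 kb of the first start, P7 summits were at 3.56 to 6.53 or missing. The Pax6 peak of RS Scml2-KO replicate 1, at 8.33, was not among the 17813 of its library. That of cKit Scml2-KO replicate 2, at 4.72 and at a later start, was. On the same count Gata2 was in 8 adult and 4 P7 libraries, Olig1 in 0 and 1 and Tbx2 in 1 and 3.

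Between consecutive stages, 4 of the 39 members separated all cKit from all PS libraries. Pax9, Tbx2, Tbx3 and Gata6 had a peak in 0 of 4 PS and all 4 cKit libraries, 10.3% of the 39 beside 1.31% of all genes. Of the 13 members open in all 4 cKit libraries these are 30.8%, beside 2.65% of the 10497 genes open in all 4 cKit libraries. No member went the opposite way, beside 1.05% of all genes, and none was in 0 of 4 cKit and all 4 Thy1 libraries, beside 0.241% of all genes, or the reverse, beside 0%. With 4 against 4 libraries the smallest exact two-sided p is 0.0286, so these counts carry no test by gene. With a −log10 q of 5 or more, 1 member separated PS from cKit in this way, and leaving out any library gave 4 or 5.

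Sox1 and Sox17 had their highest values in PS. Sox1, a factor of neural progenitors, had a peak in 0 of 4 RS and all 4 PS libraries, the only such member (2.56% of the 39), beside 0.198% of all genes. No member had the reverse, beside 0.123% of all genes. The fold enrichment of Sox1 was 11.4 and 8.15 in PS Scml2-KO and 7.23 and 9.05 in PS wild type. Outside PS it had a summit near its start in Thy1 wild type, at 5.43 and 4.36, and a peak that only reached the 1-kb window in cKit wild type replicate 2. The PS values were all above the Thy1 values, and the strongest summits lay between 263 bp upstream and 170 bp downstream of the TSS. Sox17, a factor of endoderm and endothelium and of primordial germ cells in human, was open in 3 PS libraries at 7.80, 16 and 8.54, in 1 RS library by the edge of a peak, and in 6 P7 libraries at 4.77 to 6.00. Among the strongest peaks both genes were open in 3 PS libraries and no other, so Sox1 no longer separated RS from PS there. Sox2, the pluripotency and neural factor, was open in 6 adult and 7 P7 libraries, at 3.32 to 12.5 (median 4.33) and 6.36 to 11.5 (median 7.71).

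**Figure D4:**
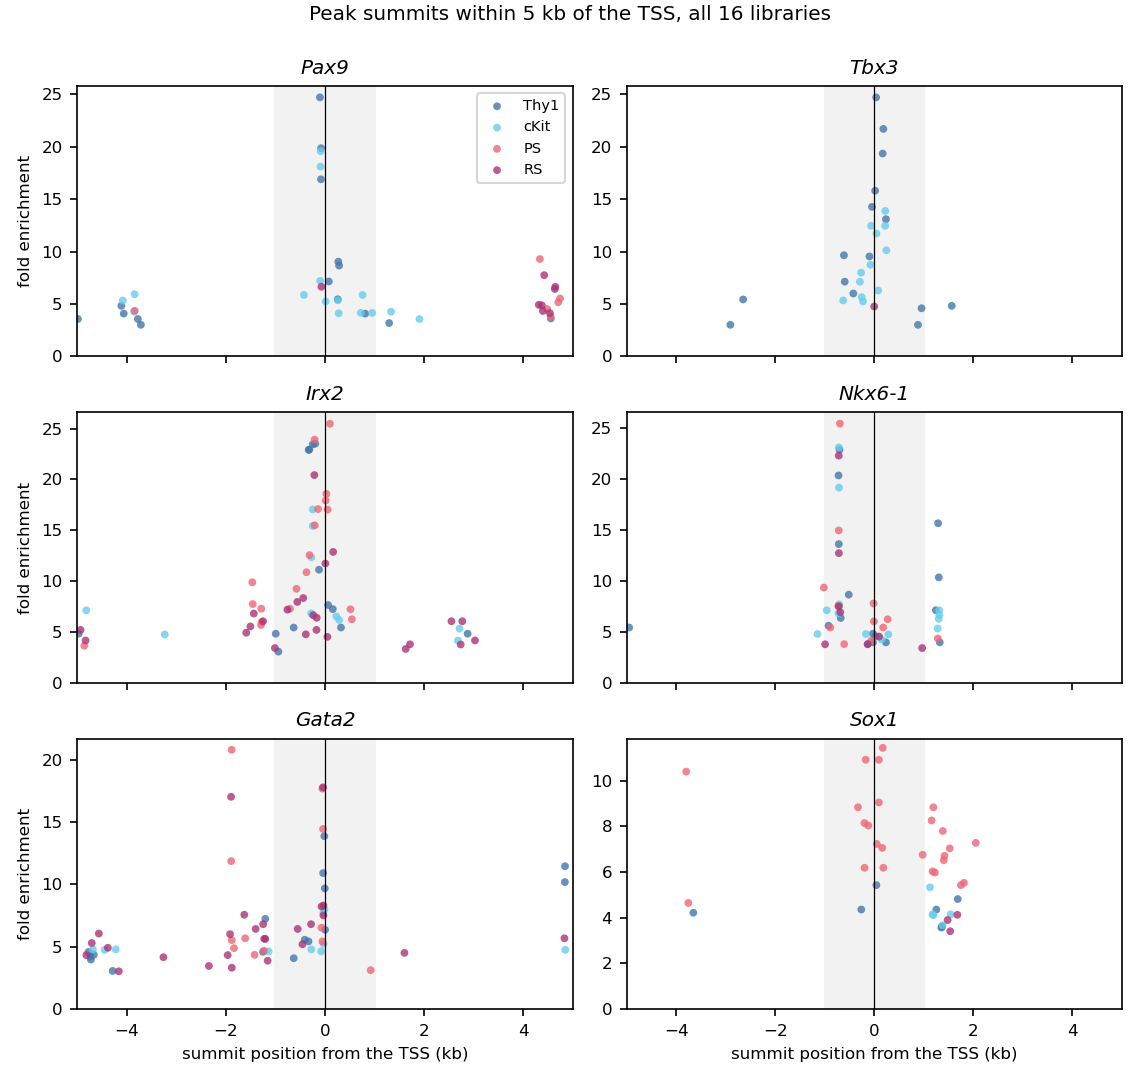
Fold enrichment (y axis) of every peak summit within 5 kb of the TSS (x axis, kb, negative upstream) of 6 genes in the 16 libraries, coloured by stage; the grey band is the 1-kb promoter window. The Pax9 and Tbx3 summits near 0 are nearly all Thy1 and cKit, those of Irx2, Nkx6-1 and Gata2 hold all stages, and the Sox1 band holds mostly PS.

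None of the other members was called at its promoter, and those open in fewer than 5 or more than 11 libraries were not tested. In the Irx family, Irx3 was open in 6 adult libraries at 4.02 to 6.06 (median 4.78) and 8 P7 libraries at 4.72 to 12.3 (median 11.4). Irx5 was open in 7 and 7, and Irx1 in 4 and 5. In the Lhx family, Lhx2, of eye and forebrain, was open in 7 adult libraries at 4.35 to 14 (median 5.64) and 8 P7 libraries at 5.56 to 20.5 (median 13.5), while Lhx5 was open in 0 adult and 2 P7 libraries, at 4.22 in Thy1 wild type and 3.73 in cKit Scml2-KO. Of the Six2, Six3 and Six6 genes, Six6, of eye and pituitary, was open in 2 adult (4.13 and 4.68) and 5 P7 libraries (3.18 to 5.93, median 4.36), Six2 of nephron progenitors in 6 and 7, and Six3 of forebrain and eye in 5 and 4. In the Fox and Gata families, Foxa1 was open in 6 adult and 7 P7 libraries and Gata3, of T cells, in 7 and 8, in 3 of them only by the edge of a peak. Just upstream of the 1-kb window Gata3 had a summit in every P7 library, at 11.54 to 36.78. In adult libraries a summit there was at 4.89 to 7.74 or missing.

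Among the remaining T-box genes, Tbx18 was open in 6 adult and 8 P7 libraries, Tbx15 in 2 and 6, and Tbx1, of pharyngeal arches, in 6 and 4. Of the Pax genes, Pax1, of the vertebral column, was open in 2 adult and 5 P7 libraries, Pax3, of neural crest and muscle, in 1 and 4, Pax8 in 0 and 3 and Pax2 in 1 and 1. In the Nkx family, Nkx2-1, of thyroid and lung, was open in 1 adult library, RS wild type replicate 1 at 3.88, and in 4 P7 libraries, both of Thy1 wild type at 3.62 and 5.45 and replicate 1 of cKit Scml2-KO and cKit wild type at 4.26 and 4.75. Nkx2-2 was open in a single library, Thy1 Scml2-KO replicate 2, at 3.97. The never-open genes were Pax5 of B cells, Pax7 of muscle satellite cells, Tbx4 and Tbx5 of hind limb and fore limb, and the heart factor Nkx2-5. A missing peak says only that none passed the peak caller's threshold.

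Where members had a promoter peak, it mostly ranked low. Set among the open promoters of the same library, the 319 member values had a median percentile of 19.1, and 277 (86.8%) were under the 50th. The median fold enrichment of members was 4.43 to 9.04 over the 16 libraries, and that of all open genes was 7.87 to 18.7. Irx2 (median percentile 65.3) and Pax9 (55.5) were the members above the middle. The highest medians of fold enrichment were 17 for Irx2, 16.9 for Pax9 and 13.2 for Nkx6-1.

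The knockout of Scml2 gave no call at a member promoter. An exact conditional test permuted genotype labels within each stage (1296 arrangements, two-sided), adjusted over the 805 genes able to reach 0.05, of which 6 were members. It called 0 members and 0% of all genes tested, with 14 genes (1.74%) and 0 members at an unadjusted exact p under 0.05. The differences in number of libraries were at most 3. Irx1 was open in 6 Scml2-KO and 3 wild-type libraries (exact p = 0.356), Six3 in 3 and 6 (0.356), Nkx2-1 in 1 and 4 (0.278) and Sox1, which could not reach 0.05 in this design, in 2 and 5 (0.167).

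Within a stage, 2 against 2 libraries allow no exact two-sided p under 0.333, so patterns were only counted. In Thy1, Nkx2-1, Olig2, Six3 and Sox1 had a peak in neither Scml2-KO and both wild-type libraries, which 0.789% of all genes did, and none had the reverse, beside 0.0709%. Their wild-type fold enrichment was low, at 3.62 and 5.45 for Nkx2-1, 9.04 and 4.36 for Olig2, 3.62 and 5.45 for Six3 and 5.43 and 4.36 for Sox1. The Thy1 lists held 110680 and 52113 peaks in Scml2-KO and 135892 and 75038 in wild type. Among the strongest 17813 peaks of each library none of these 4 genes had a peak in Thy1, and the 1 member with this pattern was another gene. With a fold enrichment of 5 or more 0 members had it.

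In RS, the pattern ran the other way: Irx1, Pax6, Six2 and Tbx2 had a peak in both Scml2-KO and neither wild-type library, as 2.29% of all genes did, and none had the reverse, as 0.402% did. Their values in RS Scml2-KO were 5.68 and 5.63 for Irx1, 8.33 and 4.33 for Pax6, 4.54 and 4.76 for Six2 and 5.68 and 4.76 for Tbx2. For Pax6 these were different sites, 8.33 at the first start and 4.33 at a later one. RS Scml2-KO replicate 1 had the longest list of all, whereas replicate 2, with 27105 peaks, had fewer than the wild-type lists of 52379 and 31070. Among the strongest 17813 peaks 0 members had this pattern. In PS, Irx1 was open only in both Scml2-KO libraries, at 4.68 and 5.43, as 0.666% of all genes were, and Tbx18 only in both wild-type libraries, at 4.65 and 5.03, as 0.851% were. In cKit no member had either pattern, beside 0.113% and 0.123% of all genes.

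Peaks away from the promoters showed another set of members. Such peaks, named for a member by the authors and outside the 1-kb window, were counted per 100000 peaks of a library and compared by a two-sided exact permutation test (12870 arrangements), adjusted over the 15581 genes with one in 5 or more libraries. Of 35 members tested, 4 rose in adult cells (11.4%, beside 6.42% of all genes tested), namely Pax2, Six3, Irx5 and Lhx5. Another 2 fell, Pax8 and Nkx2-2 (5.71%, beside 16.5%). The median difference, adult minus P7, was 0.224 peaks per 100000 over the members tested and −0.416 over all genes tested. When peak numbers were not divided by list length, Irx5 alone was called.

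Pax2, of kidney and ear, had 9.82 ± 3.09 such peaks per 100000 in adult and 3.13 ± 2.32 in P7 libraries (SD, n = 8 each, exact permutation adjusted p = 0.0102). The adult libraries ran from 4.27 to 14.8 and the P7 libraries from 0 to 6.62, and 60 of its 68 peaks were intergenic. For Six3 the values were 9.13 ± 3.49 and 3.08 ± 1.42 (exact permutation adjusted p = 0.0063, n = 8 each), with adult libraries at 4.27 to 13.7 and P7 libraries at 0 to 4.80. Pax2 and Six3 passed without each of the 16 libraries in turn. Irx5 had 3.36 ± 2.98 in adult libraries, from 0 to 7.38, and no peak named for it in any P7 library (exact permutation adjusted p = 0.0137, n = 8 each). All 11 of its peaks lay within the gene. Irx5 failed without any of the 4 Thy1 libraries, cKit Scml2-KO replicate 1 or either cKit wild-type library, with an adjusted p of up to 0.0615 (exact permutation). Upstream of its 1-kb window every library had a summit. The strongest there was at 8.92 to 34.37 in P7 and 19.49 to 47.83 in adult libraries. These summits are not in the count, which takes only peaks named for Irx5 and outside the window. The TSS of 4933436C20Rik lies 1676 bp from that of Irx5. P7 cells were thus open near Irx5, and the call covers only the peaks within the gene.

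Lhx5, of the forebrain, had 9.17 ± 7.15 peaks per 100000 in adult and 2.48 ± 2.04 in P7 libraries (exact permutation adjusted p = 0.0393, n = 8 each). Pax8, of thyroid and kidney, had 0.901 ± 1.42 in adult and 4.36 ± 2.47 in P7 libraries (exact permutation adjusted p = 0.0347, n = 8 each). Nkx2-2, of pancreas and ventral neural tube, had 0.467 ± 0.865 and 2.36 ± 1.40 (exact permutation adjusted p = 0.0409, n = 8 each). These calls were near the threshold. With a −log10 q of 5 or more Pax8 (exact permutation adjusted p = 0.236) and Nkx2-2 (0.0776) were both lost. Among the 17813 strongest peaks Nkx2-2 was lost as well (0.438), and Pax8 and Irx5 had such peaks in too few libraries to be tested. Lhx5 passed without 5 of the 16 libraries, namely replicate 2 of cKit or PS Scml2-KO, either RS Scml2-KO library or RS wild type replicate 2 (exact permutation adjusted p of 0.016 to 0.075 over the 16 fits). Pax8 passed without cKit Scml2-KO replicate 2, either cKit wild-type library, replicate 1 of PS or RS Scml2-KO, or RS wild type replicate 2, and failed without each of the others (exact permutation adjusted p up to 0.055). Nkx2-2 passed without either replicate 1 of Thy1, replicate 2 of cKit Scml2-KO, or replicate 1 of RS Scml2-KO or RS wild type, and failed without each of the others (up to 0.07).

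**Figure D5:**
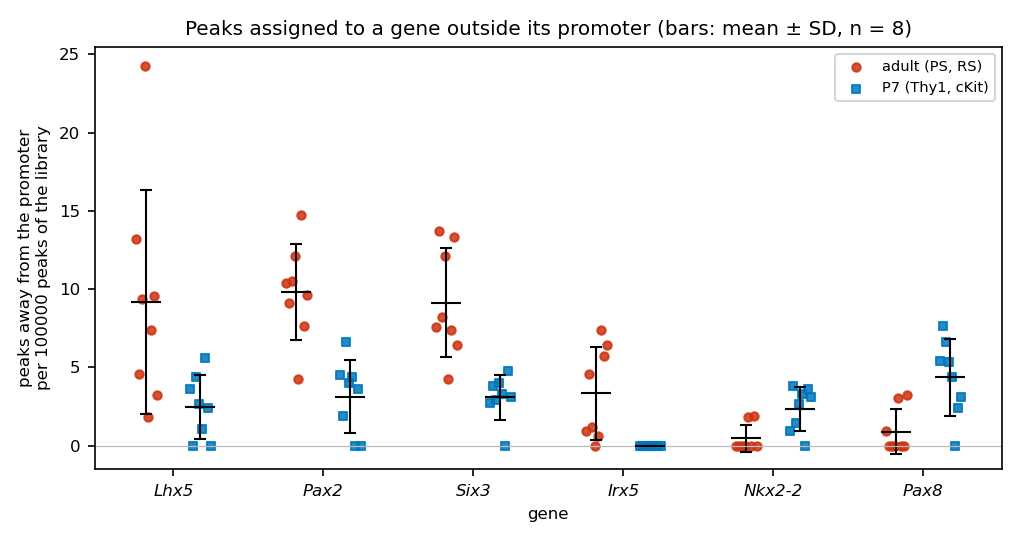
Peaks assigned to each of the 6 called genes outside the promoter window, per 100000 peaks of the library (y axis); each point is a library, red circles adult and blue squares P7, with black bars for the mean and SD (n = 8). Six3 and Pax2 are higher in adult cells, Irx5 is at 0 in every P7 library, and Pax8 and Nkx2-2 are lower in adult cells, where most libraries are at 0.

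To see which sites lay behind these sums, the peaks of all libraries that overlapped were merged into 367750 regions, of which 1035 were named for a member and held none of its promoter peaks. Most of these, 616, came from a single library, and none was present in all 16. Of the 121 member regions present in 5 to 11 libraries, 39 had a peak in fewer adult than P7 libraries (32.2%, beside 46.8% of the 48340 regions tested) and 17 in more (14%, beside 14.5%), by the Fisher exact test adjusted over all regions tested. They belonged to 21 members. Leaving out Thy1 Scml2-KO replicate 1, Thy1 wild type replicate 1 or cKit Scml2-KO replicate 1 lowered the 39 to 23, and leaving out cKit wild type replicate 1 lowered it to 25. The number of regions that fell was 15 with a −log10 q of 5 or more and 4 with lists of equal length.

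At 3 members a single site separated all adult from all P7 libraries. The share of all regions tested that did so is not given here, so these sites are only described. An intergenic region centred at −156 kb from the Six3 start, chr17:85463453-85465420 (mm10), had a peak in all 8 adult and 0 P7 libraries (Fisher exact, adjusted p = 0.00402). Its fold enrichment was 8.32 and 6.52 in PS Scml2-KO, 6.71 and 5.53 in PS wild type, 10.2 and 5.20 in RS Scml2-KO and 5.54 and 5.64 in RS wild type. Another, at −87.7 kb from the Lhx5 start, chr5:120341054-120347363, was also present in 8 adult and 0 P7 libraries (Fisher exact, adjusted p = 0.00402). There the values were 5.20 and 5.98 in PS Scml2-KO, 11.9 and 5.03 in PS wild type, 17.4 and 15.2 in RS Scml2-KO and 16.6 and 18.4 in RS wild type, so that all 4 RS libraries were above all 4 PS libraries. The reverse held 128 kb downstream of the Gata3 start, at chr2:9749934-9750602, in 0 adult and 8 P7 libraries (Fisher exact, adjusted p = 0.00402), at 5.24 to 11.3 (median 7.82).

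The 4 called regions that held both exon and intron sequence all rose in adult cells. The share of such regions that rose over all genes is not given here. Pax9 had one 4.51 kb past its start, chr12:56699794-56700497, in 7 adult and 1 P7 libraries (Fisher exact, adjusted p = 0.0266), at 3.80 to 9.29 in adult libraries and 3.62 in Thy1 wild type replicate 1. Irx5 had one 2.19 kb past its start, chr8:92359143-92360834, in 7 and 0 libraries (Fisher exact, adjusted p = 0.00877). Pax6 had one 19.1 kb past the nearest of its starts, chr2:105694861-105695636, in 6 and 0 (Fisher exact, adjusted p = 0.0199), and Gata6 one 31.8 kb past its start in 5 and 0 (0.0418). Pax9 thus had a promoter site that fell and a site inside the gene that rose. The members with most regions that fell were Irx1 (7), Gata3 (6) and Nkx6-1 (5), all of them intergenic, while the Nkx6-1 promoter was open throughout. Regions that rose numbered 1, 1 and 2 for these members. Around Irx2, whose promoter was also open throughout, 3 regions fell and 2 rose. An intergenic region at −430 kb from the start, chr13:72197904-72199600, was present in 1 adult library at 3.41 and in 8 P7 libraries at 4.72 to 21.4 (Fisher exact, adjusted p = 0.00877). Another, at −621 kb, went the other way, in 6 adult libraries at 5.20 to 21.2 and 0 P7 libraries (Fisher exact, adjusted p = 0.0199).

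Among markers of other testis cells, lists of Sertoli, peritubular and endothelial genes were open more widely in P7 libraries. Of 18 Sertoli cell markers, 3 to 11 had a promoter peak in adult libraries and 7 to 16 in P7 libraries, and 5 of the 11 tested fell (Inha, Clu, Rhox8, Cst12 and Nr5a1, Fisher exact, adjusted p of 0.00876 to 0.0247), with Amhr2 in 0 libraries. Of 11 peritubular markers, 1 to 7 were open in adult and 5 to 11 in P7 libraries, and 2 of the 10 tested fell (Acta2 and Lmod1). Of 10 endothelial markers, 0 to 4 were open in adult and 2 to 7 in P7 libraries, and 3 of the 6 tested fell (Cdh5, Kdr and Tek), with Pecam1 and Tie1 in 0 libraries. These counts stand beside the 24.7% of all genes tested that fell. Of 8 Leydig markers 1 to 3 were open in adult and 0 to 5 in P7 libraries, and of 9 immune markers 0 to 3 and 0 to 4, and 0 of the 3 tested in each list were called. Single markers were open in more adult than P7 libraries, such as Des of the peritubular list and Nr2f2 of the Leydig list, each in 8 adult and 7 P7 libraries. The part of other cells in the members' counts was not tested. Of 18 germ cell markers, 13 to 18 were open in adult and 4 to 11 in P7 libraries, and 10 were open in more adult libraries, 3 in fewer and the rest in as many. The 7 that rose are genes of meiosis and spermatids: Spo11, Hormad1, Piwil1, Tnp1 and Acr in 8 adult and 0 P7 libraries (Fisher exact, adjusted p = 0.00358) and Prm1 and Prm2 in 7 and 0 (0.00876). The 3 open in fewer were spermatogonial genes and were not called, Zbtb16 in 3 adult and 7 P7 libraries, Sall4 in 2 and 5 and Gfra1 in 5 and 6, while Id4, Kit, Dazl and Uchl1 were open in all 16. The marker genes that were not called are named here after their values were seen.

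Related genes and the regulators themselves gave the following counts. Of 38 Hox cluster genes, 1 of the 9 tested fell (Hoxd10, open in 1 adult and 7 P7 libraries, Fisher exact adjusted p = 0.0305). Of the 38, 20 were open in fewer adult than P7 libraries (52.6%, beside 27.1% of all genes) and 11 in more (28.9%, beside 16.1%). A median of 10.5 Hox genes was open in adult and 16 in P7 libraries. Of 51 other genes of the members' families, a median of 24.5 was open in adult and 36 in P7 libraries. Of these, 3 of the 19 tested fell, the LIM homeobox gene Lhx6 (0 and 7 libraries, Fisher exact adjusted p = 0.00876), Tbx22 (0 and 6) and Sox8 (2 and 8, both 0.0247), and Nkx2-6 rose (6 and 0, also 0.0247). Among 11 genes of Polycomb repressive complex 2, 9 were open in all 16 libraries and Phf19, an accessory subunit, fell (2 and 8, Fisher exact adjusted p = 0.0247). Of 22 genes of the other Polycomb complex and 13 of trithorax proteins and demethylases, 16 and 9 were open in all 16 libraries, and 0 of the single gene tested in each was called.

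The median CpG content of the members' promoters was above that of all promoters, and members never open had more than other promoters never open. Over the 300 bases from 250 before to 50 after the start, the observed over expected CpG ratio had a median of 0.747 in the 27 members matched and 0.638 in 14914 promoters of all genes, and GC content was 62.3% and 57.7%. In promoters of all genes this ratio was 0.154 where no library had a peak and 0.837 where all 16 had one. The 4 matched members with no peak had a median of 0.523, against 0.76 for the 3 open in all 16. The letters GGGCGG, the GC box, stood on either strand in 70.4% of the members' windows and 51.2% of all windows, and TATAAA on the gene's strand in 3.7% and 7.13%. These are matches of letters and not sites of binding.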

How the data were processed

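The data were ATAC-seq peak lists of 16 libraries, 2 per stage and genotype, from 75-base single reads. Per the submitters' processing notes, Bowtie 1.1.1, MACS2 2.1.0.20140616 and mm10 were used. Each deposited list holds 1 line per summit with the authors' fold enrichment (a ratio), pileup (a signal) and −log10 p and q. Read depth is not given in the sources used here. The 1431525 lines gave 1111092 peaks after 576 mitochondrial lines were left out. Replicate numbers came from the sample titles, and no label ties a replicate to an animal, so the p-values cover only variation among libraries, which may be technical.

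Start sites were rebuilt from the gene positions the authors deposited (23311 sites, 21161 genes). Of 1412 genes named only together with another gene, 837 were placed by RefSeq position and the rest were left out. Promoter counts, peaks elsewhere and merged regions were tested as described with Python 3.11.15, numpy 2.4.6, pandas 2.3.3 and scipy 1.17.1, and the scripts were tested on simulated data. Merged regions, summit-based promoters and alternatives within a stage were added after seeing the data. The members and gene lists were chosen with earlier results of these data known. All 39 members are accounted for; values by library or their range were to be given for those called, those separated between stages, the largest difference in each family, members in 16, 1 or 0 libraries and the 3 strongest, and counts and ranges for the others. Values of Pax6, Sox2, Lhx2 and the members counted within a stage were added after they were seen. So were those of the Gata3, Nkx6-1 and Irx5 sites outside the window. Alternatives were stricter peak thresholds, equal list lengths, other windows and overlaps, 1 genotype alone, a replicate block and leaving out each library.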

Additional observations from a re-analysis of the deposited data

Results flagged for a closer look

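Groups of 8 libraries (adult or P7) or 4 (a stage) were searched for a library apart from the others. The values were peaks away from a member's promoter per 100000 peaks, or the number of members with a promoter peak. Of 82 such groups, 13 (15.9%) held one, all of them groups of 8 and all for peaks away from promoters. Chance gives about 1 in 20 for normally distributed values, which small peak counts are not. RS Scml2-KO replicate 1, the longest list, stood high for all members together at 346 (median of the adult libraries 214), for Irx1 at 98.1 (15.7) and for Pax3 at 32.3 (13.4). In adult cells, Tbx5 stood at 1.89 in PS Scml2-KO replicate 1 (2 peaks, median 0), Nkx2-1 at 4.04 in PS wild type replicate 2 (1 peak, median 0) and Nkx6-1 at 13.4 in RS wild type replicate 1 (5.09).

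The shortest list, cKit Scml2-KO replicate 2, stood apart from the other P7 libraries at 5 members. In this list a single peak is worth 5.61 per 100000, so the values rest on 0 to 3 peaks. It had 16.8 for Tbx1 (3 peaks, median 6.4) and 5.61 for Sox1 (1 peak, median 1.21), and 0 for Six3 (median 3.19), 0 for Irx1 (27) and 5.61 for Gata3 (1 peak, median 15.8). Among the other P7 libraries, Tbx4 stood at 3.28 in cKit Scml2-KO replicate 1 (3 peaks, median 0) and Pax1 at 2.4 in cKit wild type replicate 1 (2 peaks, median 0). No member had opposite genotype patterns in 2 stages.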

How the results depend on the processing

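The 4 promoter calls in adult against P7 cells became 0 in wild-type and 0 in Scml2-KO libraries alone, where no gene at all was called and 4 libraries met 4. It was 4 to 6 with a library left out and 3 to 6 under the other alternatives run, and calls in the other direction (0) and for genotype (0) did not move. Fewer cKit than Thy1 libraries fully separated 1 member in wild type alone, 1 in Scml2-KO alone and 0 to 1 with a library left out (1 without cKit wild type replicate 1), and the reverse 0. PS over cKit had 1 member with −log10 q of 5 or more, fold enrichment of 5 or more, a 500-bp window, a 100-bp overlap, summits in the window and Scml2-KO alone, and 0 to 1 with a library left out (1 without cKit wild type replicate 2). The reverse, 4 members, had 1 with −log10 q of 5 or more and 4 to 5 with a library left out. RS over PS had 3 in Scml2-KO alone and 0 to 1 with a library left out (1 without RS wild type replicate 2); the reverse, 1 member, had 0 with equal list lengths or a 2000-bp window, 2 in wild type alone and 1 with any library left out.

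Within stages, the number of wild-type-only members of Thy1, 4 with all peaks, was 1, 0 and 1 with the q limit, the fold limit and equal lengths. That of PS was 0 under each, and that of cKit 1, 1 and 0. Each count was taken anew, so the genes need not be the same. The Scml2-KO-only member of PS was lost (0) with the q limit. In RS the number, 4 with all peaks, was 2 with the fold limit and 0 with equal lengths. Of those 4, only Irx1 had a fold enrichment of 5 or more in both RS Scml2-KO libraries. Members with fewer peaks elsewhere (Pax8 and Nkx2-2) were 1 with the q limit and 1 with equal lengths, in both Foxa1 and neither of the 2, 0 with peak numbers not divided by list length and 0 to 5 with a library left out; those with more (4) were 1 with undivided numbers and 2 to 4 with a library left out, 2 without any P7 library other than cKit Scml2-KO replicate 2; in place of Irx5 they included Tbx1 with the q limit and Pax3 and Olig2 with equal lengths. Regions that fell (39) were 15 with the q limit, 17 with the fold limit, 4 with equal lengths and 23 to 48 with a library left out; those that rose (17) were 11 with the q limit and 12 to 19. The causes were not tested. With a replicate block, 4 members had fewer peaks elsewhere and no other count moved by over 1.5 times; same-numbered libraries of different groups correlated at −0.00182 to 0.423 (median 0.128, 28 pairs), so the numbers were not taken as pairs. Without cKit Scml2-KO replicate 2, 1736 genes had fewer adult promoter peaks, beside 961 in all. Short lists limit what could be seen: a weak peak can be missing because of depth.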
